A study of Mus musculus with 12 samples.

Results

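Mag, Fa2h, Cnp, Mal, Prx and Mbp are myelin genes that Schwann cells express, and all but Prx are also expressed by oligodendrocytes, the myelin cells of the brain and spinal cord. They are 6 of the 9965 mouse genes that could be named by position in bulk RNA sequencing of trigeminal ganglia, and 6 of the 4767 named genes that were tested. The set was chosen with earlier results of these data known. Each was measured through the counting interval over at least 100 bp of its own exons and of no other gene's, or, for Mbp, through the interval deposited under its own identifier.

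The trigeminal ganglion holds the cell bodies of the sensory neurons that supply the cornea, and its larger axons are wrapped by Schwann cells. Myelin forms when a glial cell winds its membrane around an axon and presses out the cytoplasm. Proteins such as Mbp hold the compacted layers together, Mag and Cnp sit where cytoplasm remains, Mal is a raft proteolipid of the sheath, and Prx is a scaffold at the outer Schwann cell surface. Fa2h makes the hydroxylated fatty acids of the galactolipids in which myelin is rich. Where nerve roots enter the brainstem, Schwann cell myelin gives way to oligodendrocyte myelin.

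All mice were female C57BL/6J animals aged 8 weeks, with 4 groups of 3 libraries. Stimulated injured mice had part of the corneal surface of a randomly chosen eye removed over 1.5 mm (keratectomy) and then received electrical stimulation (ES) for 2 weeks. Injured mice had the keratectomy alone, with tissue taken 2 weeks later. Stimulated uninjured mice had ES without a wound, and control mice were untreated. The current was a biphasic ramp at 300 µA and 20 Hz, given through the skin over the orbit for 4 min on each of 14 days under isoflurane. Both injured groups had ketamine (100 mg/kg), xylazine (10 mg/kg) and a dose of Ethiqa XR, an extended-release opioid analgesic (3.25 mg/kg), which the uninjured groups are not stated to have had. Wound and injectable agents, or current and isoflurane, therefore cannot be told apart. A sham procedure is described, but no library is labelled as sham. The title of the study names diabetic neuropathy and no label mentions diabetes. How many mice or which side went into a library is not stated, so p-values cover only the variation among the libraries, which may be technical.

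Each gene was seen through part of its transcripts, because the deposited intervals follow 1 mouse genome build, while the counts fit the exon positions of another. Positions below are on GRCm38. Mag (chromosome 7) was counted over 758 bp of its 4072 exon bases, of which 175 are coding and 583 belong to a transcript with a retained intron. Prx (chromosome 7) was counted over 2935 of 5579 exon bases in its last exon, 2552 of them coding. Fa2h (409 of 3008 bases, chromosome 8), Cnp (346 of 3639, chromosome 11) and Mal (800 of 2778, chromosome 2) were counted only in noncoding parts of a late exon.

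The Mbp interval on chromosome 18 lay over 237 of 8469 exon bases, all coding. They are the exons at 82572825 to 82572926 (102 bp), 82575172 to 82575207 (36 bp) and 82575535 to 82575633 (99 bp), numbers 9, 10 and 11 of the 13 merged exons of the gene. The first and the second of them are whole in 14 of 16 annotated transcripts, whereas the third is whole in 3 and touched by 7. The same interval covered 222 bp of Zfp236 exons, so reads of that gene are included. Intervals also held bases outside exons. The pieces of the Mbp interval summed to 8469 bp, of which 459 bp were exons of either gene. The summed lengths were 6960 bp for Fa2h, 5329 bp for Prx and 1594 bp for Cnp. Counting ignored strand. The intervals deposited under the other 5 genes' own identifiers were nearly empty for Mag (up to 1.77 CPM, read counts scaled to a common library size) and Fa2h (up to 0.254 CPM), and the one labelled Mal lay over Kcnip3 exons.

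**Figure D1:**
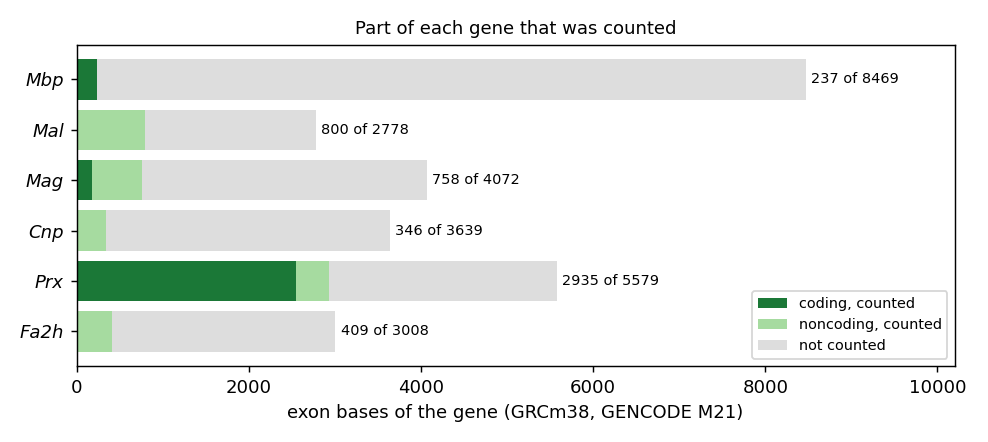
Exon bases of each gene on GRCm38 (x axis, bases), split into coding bases counted, noncoding bases counted and bases not counted. Prx has the longest counted stretch, 2935 of 5579 bases, and Mbp the shortest, 237 of 8469.

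The coding bases of Mag behind its counts are shown because they are the part of its interval shared with coding transcripts (GRCm38 chr7:30908365-30908539, minus strand, 175 bases, from the GENCODE M21 transcripts).
Mag counted coding bases: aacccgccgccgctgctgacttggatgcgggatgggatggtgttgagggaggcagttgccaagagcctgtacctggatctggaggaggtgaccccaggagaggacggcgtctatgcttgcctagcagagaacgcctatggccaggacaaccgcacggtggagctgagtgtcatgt

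Promoters are shown because all 6 genes were higher after injury, for the 4 of 6 (Mag, Cnp, Mal and Prx) listed in the RefSeq table for GRCm38.p6, as the 250 bases before the first listed start. Capitals mark ACAAAG (a SOX motif, as bound by the Schwann cell and oligodendrocyte regulator Sox10) and GGAATG (a TEAD motif) on either strand. The motif GCGNGGGCG, bound by Egr2 and its relatives, was searched in the same way and had no match in these windows. No match of these motifs overlapped another. The positions are chr7:30914864-30915113 (minus strand) for Mag, which has 3 listed starts, chr11:100574689-100574938 (plus) for Cnp, chr2:127656696-127656945 (minus) for Mal and chr7:27499074-27499323 (plus) for Prx.
Mag promoter: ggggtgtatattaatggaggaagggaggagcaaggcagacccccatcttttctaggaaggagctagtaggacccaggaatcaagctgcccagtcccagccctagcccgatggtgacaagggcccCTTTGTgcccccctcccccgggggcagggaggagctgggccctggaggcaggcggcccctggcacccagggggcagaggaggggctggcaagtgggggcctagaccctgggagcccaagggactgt
Cnp promoter: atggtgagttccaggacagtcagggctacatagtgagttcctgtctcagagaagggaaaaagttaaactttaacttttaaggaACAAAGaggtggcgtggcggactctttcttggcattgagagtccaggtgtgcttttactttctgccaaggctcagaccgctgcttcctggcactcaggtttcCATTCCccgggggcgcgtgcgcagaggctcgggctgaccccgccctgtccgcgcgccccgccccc
Mal promoter: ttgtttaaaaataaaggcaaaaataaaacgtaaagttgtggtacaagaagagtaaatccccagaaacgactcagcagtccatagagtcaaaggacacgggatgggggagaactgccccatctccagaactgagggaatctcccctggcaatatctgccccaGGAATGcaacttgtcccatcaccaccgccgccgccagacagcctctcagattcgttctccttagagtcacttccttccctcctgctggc
Prx promoter: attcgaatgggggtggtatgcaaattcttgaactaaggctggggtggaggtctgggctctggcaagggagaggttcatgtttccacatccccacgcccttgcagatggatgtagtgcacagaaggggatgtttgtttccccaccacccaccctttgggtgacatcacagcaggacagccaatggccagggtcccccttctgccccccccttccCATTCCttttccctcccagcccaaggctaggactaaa

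ACAAAG was present in the Mag window (126 bases before the start) and the Cnp window (167 bases before it), and in 16.5% of all 32851 promoter windows of that length. GGAATG was present in the Cnp, Mal and Prx windows, 65, 89 and 37 bases before the start, and in 12.6% of all windows. GCGNGGGCG was present in 4.70% of all windows. These are matches of letters and not measured binding.

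The libraries held 7952798 to 10751547 counted reads, and the 6 genes together took 0.629% to 1.63% of them. The fewest reads behind a value were 508, for Mag. The 7 tested of 16 sensory neuron markers, which define the labelled tissue, summed to 4498 to 10580 CPM per library. The sum was 5480 to 10580 CPM in stimulated injured mice and 6689 to 7942 CPM in injured mice. In stimulated uninjured mice it was 6712 to 8445 CPM and in control mice 4498 to 5067 CPM. In this sum every treated library was thus above every control, and the part of this in the comparisons with control was not tested. Gene by gene the rise was less even. The median log2 fold change of the 7 genes against control was −0.03 in injured, 0.5 in stimulated uninjured and 0.15 in stimulated injured mice. Replicate 2 of the stimulated injured mice stood apart, with a chi-square per degree of freedom of 71.0 and 47.8 against the other replicates of its group, compared with 8.26 to 32.7 for all other pairs of replicates. Values of the 6 genes that rest on it are given with and without it where leaving it out changed a call or moved the value by more than about 0.1 on the log2 scale.

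After keratectomy all 6 genes were higher than in control, by 1.62-fold (Mal) to 4.13-fold (Mag). The background was 19.3% of 13053 tested intervals higher at an adjusted p under 0.05 (edgeR quasi-likelihood test, Benjamini-Hochberg adjustment over all intervals). In stimulated injured mice 5 of the 6 were lower than in injured mice, to between 0.286-fold (Mag) and 0.529-fold (Mal), where 1.50% of intervals were lower, and Prx did not pass. In stimulated uninjured mice 5 of 6 were higher than in control, by 1.51-fold to 1.83-fold, where 18.2% were higher, and Mal did not pass. Between stimulated injured mice and control 1 of 6 (Fa2h) was higher, where 12.3% were. The median log2 fold change of the 6 was 1.53 for injury against control, −1.07 for stimulated injured against injured and 0.70 for stimulated uninjured against control, while the medians over all intervals were 0.03, 0.00 and 0.03. Without overlap between the groups, all 6 were higher after injury (28.8% of intervals), 5 were lower in stimulated injured than in injured mice (10.1%), 2 (Cnp and Fa2h) were higher in stimulated injured than in control mice (17.6%), and with stimulation alone 4 were higher (26.1%) and 1, Mal, lower (47.1% in either direction). The control and injured libraries enter several of these comparisons, so the comparisons are not independent. In bulk tissue, fewer cells of a type and less RNA per cell cannot be told apart.

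**Figure D2:**
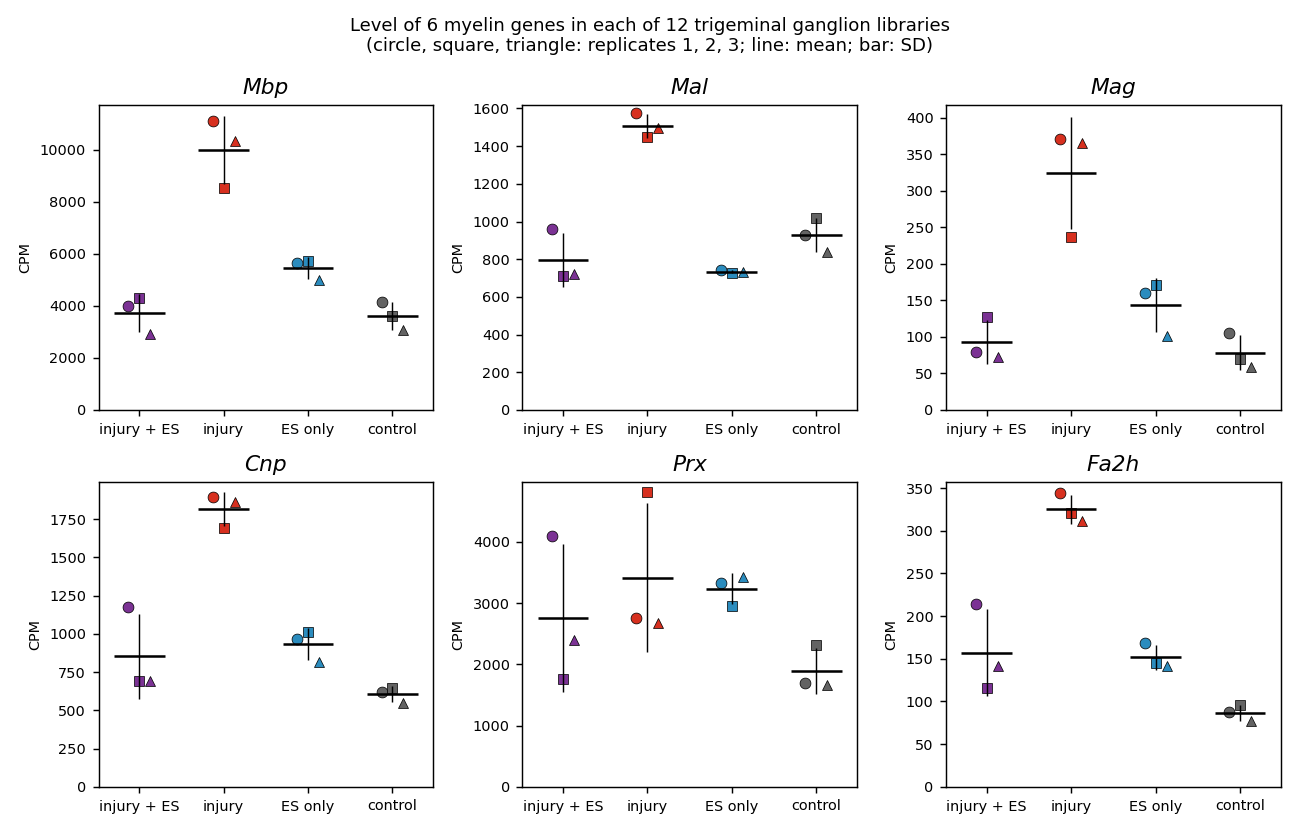
Level of each gene in every library (y axis, CPM scaled by TMM), in stimulated injured, injured, stimulated uninjured and control mice (3 libraries each, marked by replicate, with mean and SD). The 3 injured libraries lie above the 3 control libraries for all 6 genes, and above the stimulated injured libraries for all but Prx.

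Mbp, the cytoplasmic protein that binds opposed membrane layers, had the highest mean CPM of the 6 in every group, although in stimulated injured replicate 1 Prx was above it. Mbp had 3983, 4298 and 2906 CPM in stimulated injured mice and 11090, 8535 and 10350 CPM in injured mice. It had 5666, 5739 and 4984 CPM in stimulated uninjured mice and 4130, 3617 and 3077 CPM in control mice. The injured libraries were above all others, and the stimulated injured libraries overlapped the controls. Injured against control it rose by 1.47 ± 0.19 on the log2 scale (SE, adjusted p = 0.000249, n = 3 each). Stimulated injured against injured it changed by −1.42 ± 0.19 (adjusted p = 0.0023), and without replicate 2 of the stimulated injured mice by −1.47 (adjusted p = 9.08e-05). Stimulated uninjured mice were above control by 0.60 ± 0.19 (adjusted p = 0.0247), without overlap. The difference between stimulated injured mice and control was 0.05, with a 95% interval of −0.39 to 0.48 (−0.09 without replicate 2, adjusted p = 0.739).

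Mal, a proteolipid of glycolipid-rich membrane that epithelia and lymphocytes also make, followed injury but not stimulation alone. It had 959.5, 709 and 720.7 CPM in stimulated injured mice and 1574, 1446 and 1498 CPM in injured mice. It had 741.6, 726.1 and 732.7 CPM in stimulated uninjured mice and 928.8, 1017 and 838.8 CPM in control mice. The injured libraries were again above all others, and here the stimulated uninjured libraries were all below the controls. It rose by 0.70 ± 0.15 after injury (adjusted p = 0.00351) and changed by −0.92 ± 0.15 with stimulation of injured mice (adjusted p = 0.0061; −0.77, adjusted p = 0.00439, without replicate 2). The difference between stimulated uninjured mice and control was −0.34 ± 0.15 and missed the threshold (adjusted p = 0.103), but passed with DESeq2 (−0.37, adjusted p = 0.0331) and with limma's quality weights (−0.34, adjusted p = 0.00657). After removal of a GC content and length trend it was −0.08 (adjusted p = 0.795). The other 5 genes had positive values in that comparison.

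Mag, a lectin of the membrane facing the axon, had the largest fold changes of the 6 for injury against control, stimulated injured against injured and stimulated uninjured against control. Its rank over Fa2h did not hold throughout. With the GC content and length trend removed Fa2h was above it after injury (2.13 for Fa2h and 2.03 for Mag) and with stimulation alone (1.14 and 0.84). Without control replicate 2 Fa2h was also above it after injury (1.98 and 1.97) and with stimulation alone (0.88 and 0.80, with Prx at 0.95). Without stimulated uninjured replicate 2 the values with stimulation alone were 0.784 for Prx, 0.782 for Fa2h and 0.69 for Mag. Without control replicate 3 they were 0.73 for Fa2h and 0.71 for Mag. Mag had 78.7, 128 and 72.1 CPM in stimulated injured mice and 371, 236 and 366 CPM in injured mice. It had 159.8, 170.4 and 101.1 CPM in stimulated uninjured mice and 105.8, 70.4 and 59.5 CPM in control mice. No stimulated injured library reached an injured one, and the stimulated uninjured libraries overlapped the controls. It rose by 2.04 ± 0.27 after injury (adjusted p = 0.000249) and changed by −1.80 ± 0.27 with stimulation of injured mice (adjusted p = 0.00301; −2.03, adjusted p = 0.00646, without replicate 2). Stimulation alone gave 0.87 ± 0.26 (adjusted p = 0.0183). Stimulated injured mice differed from control by 0.24 (95% interval −0.36 to 0.84), and by −0.08 without replicate 2 (adjusted p = 0.863).

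Cnp, a phosphodiesterase that keeps cytoplasmic channels in the sheath open, had 1176, 692.1 and 690.7 CPM in stimulated injured mice and 1896, 1692 and 1862 CPM in injured mice. It had 965.8, 1014 and 813.2 CPM in stimulated uninjured mice and 617, 649.1 and 549.5 CPM in control mice. The injured libraries stood above all others, and every other treated library stood above every control. It rose by 1.59 ± 0.20 after injury (adjusted p = 0.000184). Stimulation changed it by −1.09 ± 0.19 in injured mice (adjusted p = 0.00723; −0.89, adjusted p = 0.00902, without replicate 2) and by 0.62 ± 0.19 in uninjured mice (adjusted p = 0.0215). Stimulated injured mice differed from control by 0.49 ± 0.19, which missed the threshold (adjusted p = 0.0849) although the groups did not overlap, and which rested on single libraries of the group: it was 0.61 without replicate 2 (adjusted p = 0.0104) and 0.20 without replicate 1 (adjusted p = 0.495).

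Prx, the periaxin scaffold that myelinating Schwann cells use to anchor the sheath and that oligodendrocytes lack, varied widely between replicates of the injured groups, with a coefficient of variation of 43.7% in stimulated injured and 35.6% in injured mice. In stimulated uninjured mice it was 7.82% and in control mice 19.7%. Prx had 4096, 1767 and 2400 CPM in stimulated injured mice and 2750, 4817 and 2672 CPM in injured mice. It had 3328, 2948 and 3427 CPM in stimulated uninjured mice and 1693, 2322 and 1659 CPM in control mice. Every injured and every stimulated uninjured library was above every control, while the stimulated injured libraries overlapped both the control and the injured libraries. It rose by 0.85 ± 0.28 after injury (adjusted p = 0.0284) and by 0.77 ± 0.28 with stimulation alone (adjusted p = 0.0437). Its injury value missed the threshold when control replicate 1 or 3, injured replicate 2, stimulated injured replicate 3 or stimulated uninjured replicate 1 or 2 was omitted (lowest without injured replicate 2, at 0.53, adjusted p = 0.194), and after removal of a GC content and length trend (0.52, adjusted p = 0.159). It also missed it with upper-quartile scaling (0.67, adjusted p = 0.0706), with at least 10 CPM required in 3 libraries (0.63, adjusted p = 0.0769) and with only the compared groups in the fit (0.78, adjusted p = 0.106). Its value with stimulation alone missed it without control replicate 1 or 3, stimulated injured replicate 3 or any 1 stimulated uninjured replicate (adjusted p 0.079 to 0.154), and after removal of that trend (0.36, adjusted p = 0.388). Its counted exon bases held 56.6% G and C, a share above that of 79.1% of tested intervals. Stimulated injured against injured it differed by −0.31 ± 0.28 (95% interval −0.94 to 0.33, adjusted p = 0.732), a value that single libraries moved. It was −0.0034 without stimulated injured replicate 2, 0.02 without injured replicate 2 and −0.71 without stimulated injured replicate 1 (adjusted p = 0.124), and no omission made it pass.

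Fa2h, the fatty acid 2-hydroxylase, was called above control in all 3 treated groups, unlike the other 5 genes. It had 214, 116 and 141 CPM in stimulated injured mice and 344, 320.3 and 311 CPM in injured mice. It had 168, 145 and 141 CPM in stimulated uninjured mice and 87.7, 96.0 and 77.3 CPM in control mice. The injured libraries were the highest, and no treated library overlapped the controls. It rose by 1.90 ± 0.19 after injury (adjusted p = 9.58e-05), by 0.80 ± 0.18 with stimulation alone (adjusted p = 0.00361) and by 0.85 ± 0.18 with both (adjusted p = 0.00674; 1.01, adjusted p = 5.51e-05, without replicate 2, and 0.57, adjusted p = 0.0294, without replicate 1). Stimulated injured mice were below injured mice by −1.05 ± 0.18 (adjusted p = 0.00723; −0.81, adjusted p = 0.00907, without replicate 2). The last call and the call with both against control were each lost without replicate 3 of the stimulated injured mice (−0.92, adjusted p = 0.16, and 0.90, adjusted p = 0.0517).

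**Figure D3:**
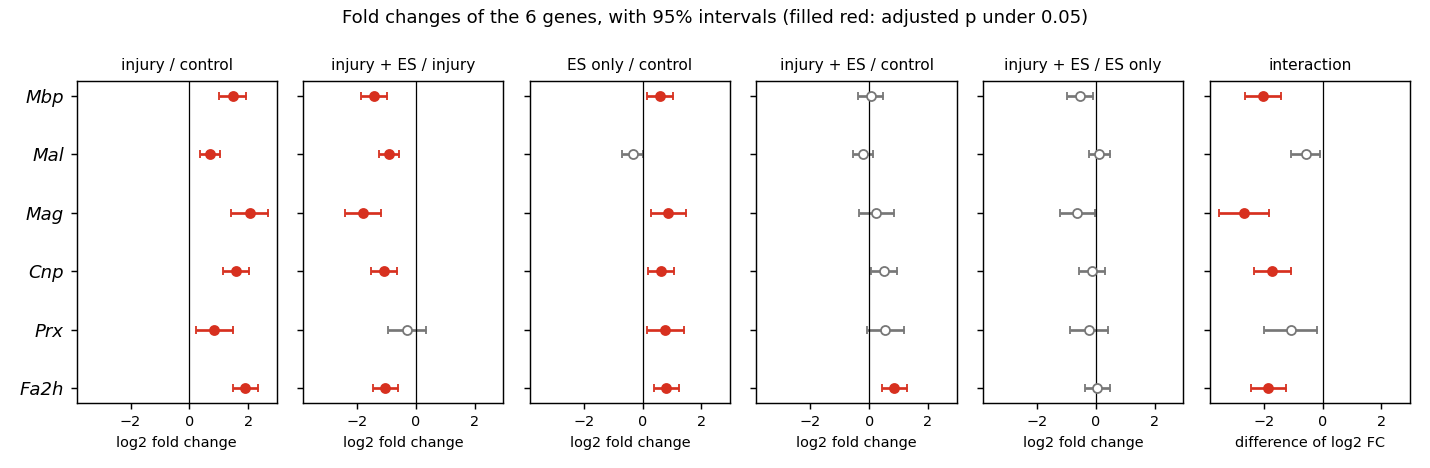
Log2 fold change of each gene in 5 comparisons and the interaction (x axis), with 95% intervals from the standard error and 8 residual degrees of freedom. Filled red points passed an adjusted p under 0.05. They number 6, 5, 5, 1, 0 and 4 from left to right.

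The stimulated injured group decided how firm its comparison with injury was. Without its replicate 3 none of the 6 genes passed in edgeR (5 had an unadjusted p under 0.05), with changes of −1.60 for Mag (adjusted p = 0.0774), −1.22 for Mbp (adjusted p = 0.0582), −0.90 for Cnp (adjusted p = 0.168) and −0.79 for Mal (adjusted p = 0.146). Without replicate 1 of the injured mice 3 passed, and Fa2h and Cnp did not (adjusted p = 0.0519 for both). With only the compared groups in the fit 3 passed, and Cnp (−1.05, adjusted p = 0.0605) and Mal (−0.87, adjusted p = 0.0537) did not. With DESeq2 and with limma's quality weights 5 passed. Those weights were 0.471, 0.273 and 3.06 for replicates 1, 2 and 3 of the stimulated injured mice. The limma values for that group therefore leaned on replicate 3. How many intervals each of these fits called is given further below. Stimulated injured against stimulated uninjured, none of the 6 passed in edgeR (2 had an unadjusted p under 0.05), where 4.07% of intervals were called. With DESeq2 1 passed and with limma's quality weights 3, but both fits also called more intervals than the 531 of edgeR. In edgeR Mag differed there by −0.63 ± 0.26 (adjusted p = 0.185; −0.91, adjusted p = 0.0656, without stimulated injured replicate 2) and Mbp by −0.55 ± 0.19 (adjusted p = 0.111), and the 2 Mbp groups did not overlap (10.5% of intervals were lower without overlap).

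The calls with stimulation alone depended on single libraries for all 5 genes but Fa2h, which passed whichever library was omitted. Without control replicate 3, or stimulated uninjured replicate 1 or 2, Fa2h alone passed. Mag and Mbp also missed the threshold without control replicate 2 (0.80, adjusted p = 0.0695, and 0.61, adjusted p = 0.0622), and Cnp without control replicate 1 (0.64, adjusted p = 0.0576). The lowest values were 0.69 for Mag and 0.51 for Cnp, both without stimulated uninjured replicate 2 (adjusted p = 0.108 and 0.133), and 0.50 for Mbp without control replicate 3 (adjusted p = 0.122). Without replicate 2 of the stimulated injured mice Mal passed as lower (−0.38, adjusted p = 0.02), Prx passed as higher in stimulated injured than in control mice (0.76, adjusted p = 0.0359) and Mbp passed as lower in stimulated injured than in stimulated uninjured mice (−0.64, adjusted p = 0.0179). With upper-quartile scaling, which moved the intervals by a median of −0.155, the calls with stimulation alone were Fa2h as higher and Mal as lower (−0.49, adjusted p = 0.0162). Requiring at least 10 CPM in 3 libraries gave the same pair (Mal −0.51, adjusted p = 0.00745), and after removal of the GC content and length trend Mag and Fa2h passed.

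Whether stimulation acted differently in injured and uninjured mice was tested as an interaction, the stimulation effect in injured mice minus that in uninjured mice. Mag (−2.67 ± 0.37, adjusted p = 0.000875), Mbp (−2.02 ± 0.27, adjusted p = 0.000849), Fa2h (−1.85 ± 0.26, adjusted p = 0.000875) and Cnp (−1.71 ± 0.27, adjusted p = 0.00165) passed, 4 of 6 where 12.3% of intervals were lower. Each of these 4 genes was below injury alone with stimulation and above control with stimulation, and each passed whichever of the 12 libraries was omitted and in the 9 other settings tried. Prx (−1.08 ± 0.39, adjusted p = 0.0607) and Mal (−0.58 ± 0.21, adjusted p = 0.067) missed the threshold, with 95% intervals of −1.98 to −0.18 and −1.07 to −0.09. Both passed without replicate 1 of the stimulated injured mice (Prx −1.499, adjusted p = 0.00277; Mal −0.75, adjusted p = 0.00909). Without replicate 2 of that group Prx was −0.73 (adjusted p = 0.183) and Mal −0.39 (adjusted p = 0.168), and with the GC content and length trend removed Prx was −0.59 (adjusted p = 0.356). Without replicate 2, Fa2h was −1.56 (adjusted p = 0.000244), Cnp −1.47 (adjusted p = 0.000454) and Mag −2.87 (adjusted p = 0.00107).

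The 6 genes did not vary alike from library to library within a group. Mag and Mbp moved together (Pearson r of the deviations from the group means 0.85 over 12 libraries, as a description), and so did Fa2h, Cnp and Mal (0.89 to 0.92). Prx ran against Mag (−0.61) and with Fa2h (0.74). Among the stimulated injured mice, replicate 1 had the highest Fa2h, Cnp, Mal and Prx, while replicate 2 had the highest Mag and Mbp and the lowest Fa2h and Prx. Among the injured mice, replicate 2 had the lowest Mag and Mbp and the highest Prx. These libraries share depth, scaling and dissection, whose part was not tested.

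**Figure D4:**
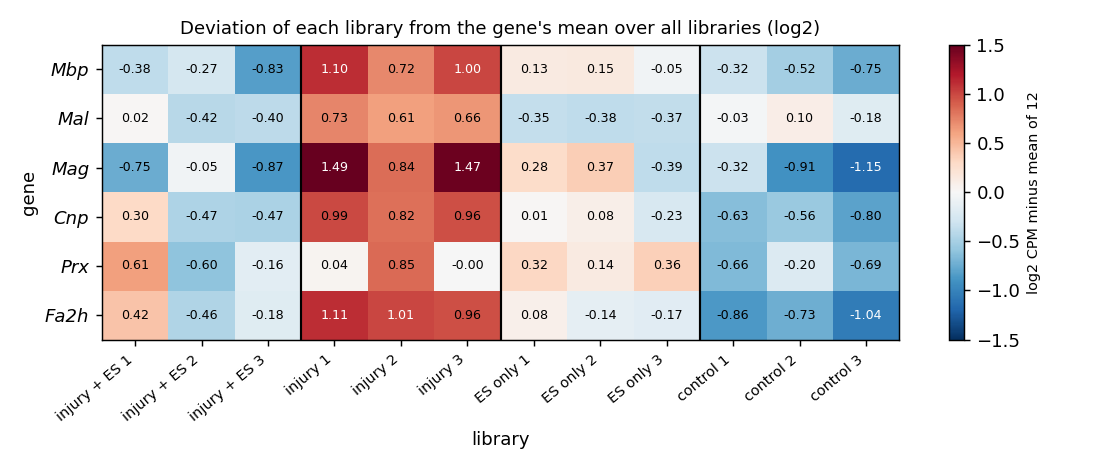
Log2 CPM of each gene in each library minus the gene's mean over all 12 libraries (colour and printed value). Injured libraries are positive for all genes but Prx, which is near 0 in replicates 1 and 3, and replicate 2 of the stimulated injured mice is at −0.05 for Mag but −0.60 for Prx.

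Per kilobase of counted exon, Mbp was highest in every group, at 15730 ± 3081 CPM per kb in stimulated injured mice, 42160 ± 5553 in injured mice, 23050 ± 1758 in stimulated uninjured mice and 15220 ± 2221 in control mice (SD, n = 3). Cnp came next in each, from 1749 ± 147 CPM per kb in control to 5251 ± 316 in injured mice, and Fa2h and Mag were the lowest. Mal and Prx changed places: Mal was above Prx in injured mice (1883 ± 80.0 and 1163 ± 414 CPM per kb) and in control mice (1160 ± 112 and 644 ± 127), below it in stimulated uninjured mice (917 ± 9.75 and 1102 ± 86.1), and overlapping it in stimulated injured mice (995.5 ± 177 and 938.5 ± 410). No other neighbours in the order overlapped in any group. These levels are for the counted stretches, which differ in their share of coding, noncoding and intronic bases. All reads of an interval were divided by the exon bases of the named gene alone. Reads from other bases of the interval, including Zfp236 exons for Mbp, are therefore in the values, and the order under another divisor was not tested.

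Other genes of the sheath moved less uniformly. Over 4 lists of compact, noncompact, lipid and regulatory myelin genes, 35 of 87 genes other than the 6 were tested. Injured against control 13 were higher, 4 lower and 18 not called, with a median log2 fold change of 0.18, where 19.3% of all intervals were higher and 11.7% lower. Stimulated injured against injured 1 was higher and 5 lower (1.50% of intervals were lower), with a median of −0.18. In the interaction 8 were lower (12.3% of intervals were) and 1 higher. These lists were assembled with earlier results of the data known.

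Of 13 other lipid genes 7 rose after injury and none fell (19.3% and 11.7% of all intervals did). Among them were Acaca, which makes malonyl-CoA (1.16, adjusted p = 0.000914), Cers2, the synthase of very-long-chain ceramides (0.74, adjusted p = 0.00276), and Gal3st1, which sulfates galactosylceramide (0.69, adjusted p = 0.00465). Cers2 and Gal3st1 were also lower in stimulated injured than in injured mice (−0.69, adjusted p = 0.0263, and −0.73, adjusted p = 0.0246). Cers2 had 130, 99.4 and 114 CPM in stimulated injured mice, against 185, 202 and 168 CPM in injured mice. Gal3st1 had 37.4, 46.5 and 34.4 CPM in stimulated injured mice, against 70.8, 59.7 and 66.5 CPM in injured mice. Neither pair of groups overlapped, and both enzymes act on the lipids that carry Fa2h products.

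In noncompact myelin, 2 of 7 other genes rose after injury, where 19.3% of all intervals did. They were the deacetylase Sirt2 (1.04, adjusted p = 0.000226) and the connexin gene Gjc3 (0.53, adjusted p = 0.00996), and Gjc3 was lower with stimulation of injured mice (−0.64, adjusted p = 0.0263). Sirt2 had 219, 190.5 and 216 CPM in stimulated injured mice, against 304, 292.5 and 307 CPM in injured mice (−0.53, adjusted p = 0.0562). Of 13 genes of myelin transcription and signalling 3 rose and 4 fell after injury, where 19.3% of all intervals rose and 11.7% fell. The risers were Gpr37 (1.88, adjusted p = 0.00103), Gpr37l1 (1.23, adjusted p = 0.00226) and Yy1 (0.54, adjusted p = 0.0206). Among those that fell were the Hippo co-activator gene Wwtr1 (−1.33, adjusted p = 0.00948), the repressor gene Zeb2 (−1.12, adjusted p = 0.00755) and Adam22 (−0.53, adjusted p = 0.0165). Adam22, the axonal receptor of the Schwann cell protein Lgi4, was higher in stimulated injured than in injured mice (0.72, adjusted p = 0.0235).

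Of 10 genes of the node and its flanking domains, where myelin meets the axon, 2 fell after injury, Cntn1 (−1.78, adjusted p = 0.00293) and Adam22, and 1 (Adam22) was higher with stimulation of injured mice. Over all intervals 11.7% fell after injury. The median of the 10 was −0.72 for injury against control and 0.54 for stimulated injured against injured, against 0.03 and 0.00 over all intervals.

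**Figure D5:**
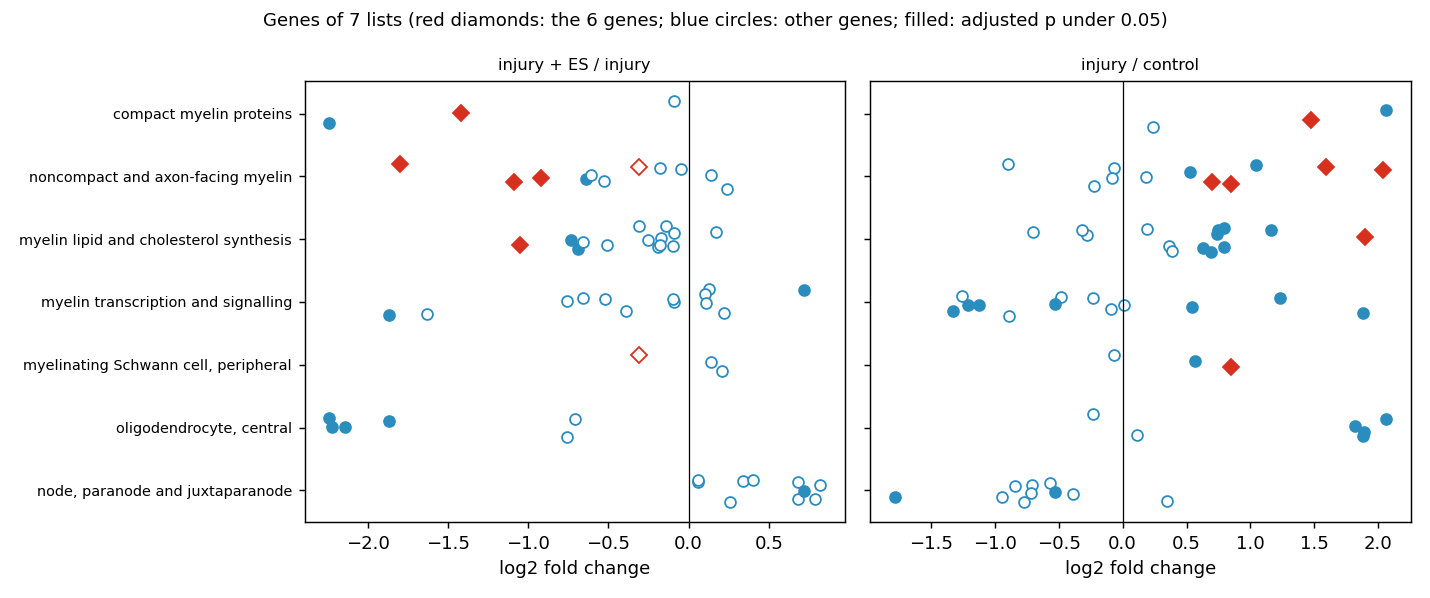
Log2 fold change (x axis) of each tested gene of 7 lists (rows), for stimulated injured against injured mice (left) and injured against control mice (right). Red diamonds are the 6 genes, blue circles other genes, and filled symbols passed an adjusted p under 0.05. The 4 filled oligodendrocyte genes lie near −2 on the left and 2 on the right.

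Of the markers that separate the myelin cells, few had an interval of their own. Of the 15 genes listed for peripheral Schwann cells, Prx, Drp2 and Ngfr were tested, and the others were not analysed here. Drp2, the partner of periaxin, was near the detection floor (0.254 to 1.74 CPM) and had adjusted p-values of 0.662 to 0.969 in the 6 comparisons in edgeR. Ngfr, which marks non-myelinating and repair Schwann cells rather than myelinating ones and which neurons also express, had 569, 415 and 595 CPM in stimulated injured mice, 442, 436 and 488 CPM in injured mice, 823.5, 702 and 718.5 CPM in stimulated uninjured mice and 307, 354 and 258.5 CPM in control mice. It rose after injury (0.57, adjusted p = 0.0154) and with stimulation alone (1.29, adjusted p = 9.84e-05), and did not pass between stimulated injured and injured mice (0.21, adjusted p = 0.683). Cdh19, listed here both for satellite glia and for non-myelinating and repair Schwann cells, fell after injury (−1.12, adjusted p = 0.00304) and with stimulation alone (−1.60, adjusted p = 0.000235).

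Of 20 oligodendrocyte genes 6 were tested and none stood at 0. Mog, Cldn11, Enpp6 and Gpr37 rose after injury and were lower in stimulated injured than in injured mice, and Pdgfra and Cspg4 passed in neither. Over all intervals 19.3% rose after injury and 1.50% were lower in stimulated injured than in injured mice. Mog, a surface protein of central myelin that Schwann cells lack, had 16.4, 39.98 and 19.5 CPM in stimulated injured mice and 149, 77.2 and 133 CPM in injured mice. It had 34.7, 43.7 and 22.7 CPM in stimulated uninjured mice and 36.5, 25.2 and 24.2 CPM in control mice. Like Mag and Mbp, Mog was highest in replicate 2 among the stimulated injured mice and lowest in replicate 2 among the injured mice, the replicate with the most Prx. The summed level of the 6 markers ranged from 148 to 343 CPM in stimulated injured mice, 599 to 1079 CPM in injured mice, 267 to 468 CPM in stimulated uninjured mice and 203 to 330.3 CPM in control mice. Gpr37 was a large part of that sum, with means of 118, 435, 203 and 118 CPM in the same order. It was also listed under myelin transcription and signalling, and Pdgfra under meninges and fibroblasts.

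Markers of some other cell types also moved with the injured group, and others did not. After injury 19.3% of all intervals rose and 11.7% fell, and 1.50% were lower in stimulated injured than in injured mice. Among 6 tested satellite glia genes 1 rose and 3 fell after injury (median log2 fold change −0.44). None of them was called between stimulated injured and injured mice. After injury 1 of 4 tested endothelial genes rose, none of 3 skeletal muscle genes was called, and of 7 sensory neuron genes 2 rose and 1 fell. The muscle genes varied widely between libraries. Their sum ranged from 3.31 to 62.5 CPM in stimulated injured mice and 109 to 335 CPM in injured mice. It ranged from 3.09 to 52.2 CPM in stimulated uninjured mice and 5.0 to 605 CPM in control mice. Of 9 tested meningeal and fibroblast genes 6 rose after injury and 6 were lower in stimulated injured than in injured mice. Their sum ranged from 8353 to 10080 CPM in stimulated injured mice, 27480 to 27850 CPM in injured mice, 4723 to 9223 CPM in stimulated uninjured mice and 9257 to 10100 CPM in control mice. Most of that sum was Ptgds alone, with a mean of 6121 CPM in stimulated injured mice and 21990 CPM in injured mice. The Ptgds mean was 4120 CPM in stimulated uninjured mice and 5226 CPM in control mice. Of 5 tested astrocyte genes 4 rose after injury and 2 were lower with stimulation of injured mice. Their sum ranged from 37.0 to 56.3 CPM in stimulated injured mice, 110.3 to 162 CPM in injured mice, 44.4 to 100.2 CPM in stimulated uninjured mice and 26.4 to 43.5 CPM in control mice. Of 6 tested macrophage genes 3 rose and 1 fell after injury and 4 were lower with stimulation of injured mice. Their sum ranged from 99.0 to 113 CPM in stimulated injured mice, 188 to 223 CPM in injured mice, 73.9 to 98.4 CPM in stimulated uninjured mice and 120.2 to 138 CPM in control mice. Of 2 tested blood genes 1 rose after injury, and their sum ranged from 41.2 to 87.8 CPM in stimulated injured mice, 67.8 to 82.4 CPM in injured mice, 11.6 to 29.7 CPM in stimulated uninjured mice and 21.96 to 40.6 CPM in control mice. Neither blood gene was lower in stimulated injured than in injured mice (median log2 fold change 0.07). Both were higher in stimulated injured than in control mice, where 12.3% of intervals were. The share of the 6 genes' changes that came with these cell types or with central myelin was not tested.

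Among 2442 named genes with at least 10 CPM, the 8 whose log2 levels followed the mean of the 6 most closely over the 12 libraries were Litaf (r = 0.98), Plin3, Frmd8, F11r, Gsn, Ltbp4, Syngr2 and Rnf130 (r = 0.947). Litaf, an endosomal protein gene, rose by 1.28 ± 0.16 after injury (adjusted p = 0.000226) and changed by −1.01 ± 0.16 with stimulation of injured mice (adjusted p = 0.00477). Gsn, which encodes the actin-severing protein gelsolin, rose by 1.11 ± 0.14 (adjusted p = 0.000193) and then changed by −0.92 ± 0.14 (adjusted p = 0.00324). The closest genes differed by member. They were Gpr37, Unc5b and Trp53inp2 for Mag, Trp53inp2, Plin3 and Agt for Mbp, Frmd8, Plin3 and Litaf for Cnp, Unc93b1, Syngr2 and Frmd8 for Fa2h, Cmbl, Nupr1 and Mob3b for Mal, and Cdkn1a, Agfg2 and Kctd11 for Prx. The correlations ran from 0.919 to 0.982 and were chosen as the highest, over libraries that share group and depth.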

How the data were processed

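The deposited values were whole-number counts per gene interval for 56941 intervals in 12 poly(A) libraries. Per the file headers, the authors made these counts with featureCounts 2.0.6 (paired input, overlaps allowed, no strand) on Ensembl 110 models for GRCm39, and with no option to count read pairs. FastQC, DESeq2 and Salmon 1.10.2 are named in the submitters' processing notes. The alignment's build and the aligner's version are not given in the sources used. Intervals were named by GRCm38 position with GENCODE M21 exons (at least 100 bp of exactly 1 gene, most exon bases), without converting coordinates. The interval for Mbp was the exception, taken by its own identifier.

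Tests used edgeR 4.0.16 quasi-likelihood fits (robust, TMM, filterByExpr) of all 12 libraries together, with Benjamini-Hochberg adjustment over 13053 intervals and a threshold of 0.05, after the same steps had been tested on simulated data. For injury against control, simulated log2 changes of 0.6, 1, 1.5 and 2 (50 intervals each) were recovered in 8%, 42%, 72% and 64% of cases. Of the 97 simulated calls 4.1% were false. A missed threshold is therefore weak evidence of no change, and recovery in the data, where more intervals were called, may differ. A 95% interval used the standard error and 8 residual degrees of freedom. CPM are counts scaled to library sizes after TMM. Other software was R 4.3.3, limma 3.58.1, DESeq2 1.42.0 and, in Python 3.11.15, pandas 2.3.3, numpy 2.4.6 and matplotlib 3.10.9. The 6 genes and all lists were chosen with earlier results of these data known. Besides the 6, named genes were up to 4 tested genes with the smallest p from each list described, in injury against control and in stimulated injured against injured, and the 8 genes and 3 per member with the closest pattern; some genes that this rule names are not reported here. Mal's further interval (111 bp, 73 reads in all) was used only as an alternative.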

Additional observations from a re-analysis of the deposited data

Results flagged for a closer look

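The effect of stimulation differed between injured and uninjured mice by a test of the difference itself (edgeR quasi-likelihood interaction, 3 libraries a group) for 4 of the 6 genes. The stimulation effect in injured mice minus that in uninjured mice was −2.67 for Mag, −1.85 for Fa2h, −1.71 for Cnp and −2.02 for Mbp on the log2 scale. In each of these genes the stimulated injured mean was below the injured mean, and the stimulated uninjured mean was above the control mean. Isoflurane was given with the current in both stimulated groups, and its part was not tested.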

How the results depend on the processing

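Each of 12 libraries was left out in turn, and settings were changed 1 at a time except where the block was joined with the trend, and DESeq2 and limma's weights, which differ in several steps. Without a library, the number of the 6 genes called ranged from 5 to 6 (injury against control), 0 to 5 (stimulated injured against injured), 1 to 6 (stimulated uninjured against control), 0 to 3 (stimulated injured against control), 0 to 1 (stimulated injured against stimulated uninjured) and 4 to 6 (interaction). The intervals called ranged from 2465 to 4847, 5 to 338, 2640 to 4593, 11 to 4349, 74 to 1804 and 1126 to 3407 in the same order. Leaving out replicate 3 of the stimulated injured mice gave the 5 and the 11, and leaving out its replicate 2 gave the 4349 and the 1804. For stimulated uninjured against control, 2 of the 6 passed with upper-quartile factors, with at least 10 CPM in at least 3 libraries and after removal of the GC and length trend. The first and the second of these moved the log2 fold changes of the intervals tested in both fits by medians of -0.155 and -0.169 there, and by -0.185 and -0.221 for injury against control, and by 0.218 and 0.25 for the interaction. For stimulated injured against control, 2 passed without a count filter and with DESeq2, in both fits Fa2h and Cnp as higher. With limma's quality weights 2 passed as well, but they were Fa2h as higher and Mal as lower (-0.32, adjusted p = 0.00888). For stimulated injured against stimulated uninjured, 2 passed without a filter, 1 with DESeq2 and 3 with limma's weights. For stimulated injured against injured, 3 passed with only the compared groups.

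Intervals called for stimulated injured against injured were 364 without a filter, 127 with only the compared groups, 368 with DESeq2 and 1044 with limma's weights. For stimulated injured against stimulated uninjured they were 274 with the trend removed, 1166 with DESeq2, 2004 with limma's weights and 0 in edgeR with only the compared groups (1730 intervals had an unadjusted p under 0.05). For stimulated injured against control they were 1125 with only the compared groups and 5354 with limma's weights. With the trend removed there were 2231 for stimulated uninjured against control and 820 for the interaction, and limma's weights gave 4411 for the interaction. The interaction with only the compared groups was not run, since it needs all 4 groups.

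Replicate numbers are shared by the groups, but same-numbered samples did not deviate together (correlations -0.246 to 0.181 over 18 pairs, 1 of them above 0.1), and the control headers number their libraries differently from the titles. A replicate block called 3600 intervals for injury against control, 157 for stimulated injured against injured and 294 for stimulated injured against stimulated uninjured, and of the 6 genes only Prx with stimulation alone lost its call (0.79, adjusted p = 0.0645). The block with the trend removed called 2697, 113, 1748, 791, 81 and 473 intervals in the 6 comparisons in the order above, and 2 of the 6 genes for stimulated uninjured against control. Mal's other interval, with 73 reads in all, gave -1.19 for injury against control (adjusted p = 0.495), the opposite sign; the cause was not tested.

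Some values that passed in neither fit changed sign, with the cause not tested. Stimulated injured against control, Mbp (0.05) was -0.070 with upper-quartile factors, -0.084 with at least 10 CPM in 3 libraries and -0.25 with limma's weights, Mag (0.24) was -0.11 with limma's weights, and Mal (-0.22) was 0.0009 with the trend removed. Leaving out a library gave -0.085 to 0.17 for Mbp and -0.079 to 0.52 for Mag. Stimulated injured against stimulated uninjured, Fa2h (0.05) was -0.0023 without a filter, -0.030 with the trend removed, -0.056 with the block and the trend removed and -0.11 with limma's weights. Leaving out a library there gave -0.24 to 0.25 for Fa2h, -0.43 to 0.027 for Cnp, -0.64 to 0.035 for Prx and -0.043 to 0.22 for Mal. Stimulated injured against injured, it gave -0.71 to 0.020 for Prx. Mal's other interval gave -0.49 for stimulated injured against stimulated uninjured and 0.70 for the interaction.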
